A study of Mus musculus with 9 samples.

Results

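The circadian clock genes described here are 10 genes: the period genes Per1, Per2 and Per3, the cryptochromes Cry1 and Cry2, the activators Clock and Arntl (Bmal1 in newer naming), the REV-ERB receptors Nr1d1 and Nr1d2, and the output factor Dbp. They were chosen by symbol, from the Ensembl identifiers of the count tables, among 49671 genes, and all 10 passed the filter on low counts. RNA-seq was measured in cells sorted from the dermis of C57BL/6 wild-type mice as KIT-positive and CD45-negative. Cells of the melanocyte lineage carry the receptor KIT, and immune cells carry CD45. Groups were melanoblasts, the precursors of melanocytes, from pups at postnatal day 0.5 (n = 3 libraries), adult melanocyte stem cells (McSC) from mice of 8 to 10 weeks (n = 4) and aged McSC from mice of 24 months (n = 2). Skin of the adult and aged mice was in telogen, when hair follicles rest. Female mice were used throughout, and each library pooled cells of several animals. The aged mice came from another colony at 21 months, so colony and age cannot be told apart. No hour of skin collection is given in the labels, so the values are levels and carry no phase or amplitude.

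The mammalian clock is a feedback loop of transcription. CLOCK and ARNTL bind as a pair to E-box sequences and activate the period and cryptochrome genes, whose proteins then repress that pair, as well as the REV-ERB genes, whose proteins repress Arntl. Nearly all cells carry such a loop, skin cells included, and its transcripts rise and fall over the day, with those of Arntl in opposite phase to those of most E-box genes. Per1 is in addition known as a gene that light, cyclic AMP and glucocorticoid signals induce within a short time.

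Sequence upstream of the 4 genes that differed between adult McSC and melanoblasts and have a window in the RefSeq table (build GRCm38.p6) is given first, since E-boxes and D-boxes, the site of Dbp and its relatives, are how clock genes are wired to each other. Each window holds the 250 bases before a RefSeq start, 5′ to 3′ on the gene's strand. Capitals mark matches to an E-box (CACGTG), an E-prime box (CACGTT, whose reverse complement reads AACGTG) or a D-box (TTATGTAA). The windows are Per1 at chr11:69098699-69098948 (plus strand), Cry1 at chr10:85185055-85185304 (minus), Per3 at chr4:151044666-151044915 (minus) and Arntl at chr7:113207215-113207464 (plus).
Per1: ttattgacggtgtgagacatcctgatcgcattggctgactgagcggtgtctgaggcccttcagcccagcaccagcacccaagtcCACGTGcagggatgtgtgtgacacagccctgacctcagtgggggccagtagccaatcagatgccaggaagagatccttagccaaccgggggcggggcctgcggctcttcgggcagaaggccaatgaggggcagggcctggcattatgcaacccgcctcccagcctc
Cry1: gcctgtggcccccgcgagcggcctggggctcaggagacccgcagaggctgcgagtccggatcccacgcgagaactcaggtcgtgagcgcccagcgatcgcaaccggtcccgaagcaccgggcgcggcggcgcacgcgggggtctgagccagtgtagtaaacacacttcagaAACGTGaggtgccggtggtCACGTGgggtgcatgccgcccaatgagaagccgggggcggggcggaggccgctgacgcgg
Per3: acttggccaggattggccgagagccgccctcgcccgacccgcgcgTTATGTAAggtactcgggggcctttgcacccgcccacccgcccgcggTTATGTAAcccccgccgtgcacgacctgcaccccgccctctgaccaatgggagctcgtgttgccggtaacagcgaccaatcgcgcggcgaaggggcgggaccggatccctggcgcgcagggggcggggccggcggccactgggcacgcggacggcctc
Arntl: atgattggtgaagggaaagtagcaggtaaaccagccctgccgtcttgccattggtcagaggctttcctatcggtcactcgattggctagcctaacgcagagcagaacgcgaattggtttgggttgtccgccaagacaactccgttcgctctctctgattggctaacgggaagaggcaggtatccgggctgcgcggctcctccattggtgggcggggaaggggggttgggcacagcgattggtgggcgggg

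The Per1 window held 1 E-box, 161 bases before the start. A second Per1 window, at chr11:69099902-69100151, held no match. In the Cry1 window an E-box lay 55 bases and an E-prime box 74 bases before the start. Per3 had 2 D-box matches, 198 and 151 bases before its start, and no E-box in this window. The Arntl window contained none of the motifs searched, including by name the RRE, the site of the REV-ERB and ROR receptors, which says only that these letters are not in this stretch. Of the 10 clock genes 9 had a window in the table, 2 of them with an E-box, 3 with an E-prime box (Cry1, Cry2 and Nr1d1), 1 with the D-box TTATGTAA and 0 with the D-box TTACGTAA, the RRE or the cyclic AMP response element TGACGTCA. Over all 32851 windows of the same length, both strands searched, the E-box was found in 6.02%, the E-prime box in 3.85%, TTATGTAA in 0.819%, TTACGTAA in 0.113%, the RRE in 0.332% and TGACGTCA in 1.55%. The 9 clock genes have 13 windows between them, and a gene counts with a match in any of its windows. The gene counts are therefore not on the same scale as these shares of single windows. A match is a run of letters and not a measured site.

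Total counts were 23688288 to 33710117 in melanoblast libraries, 19956424 to 21572026 in adult and 12594770 to 16362560 in aged ones, so the aged values rest on the fewest counts and the fewest pools. The melanocyte lineage markers, summed over 9 genes led by Dct, reached 13160 to 23970 CPM (counts scaled to a common library size, here with TMM factors) in melanoblasts, 4353 to 10530 in adult and 7244 to 8770 in aged McSC. Melanoblast 3 was the lowest of its group for these markers and adult 2 the highest of its group, and the results below are given without both where that matters. All 9 keratinocyte markers rose in adult McSC, from a summed 87.5 to 235.8 CPM in melanoblasts to 1129 to 2424, and stood at 818.1 to 1008 in aged McSC. Schwann cell markers summed to 119.2 to 207.1, 395.0 to 628.5 and 110.2 to 172.9 CPM in the same order, and no marker of either list was at 0 in a whole group. The part of such cells in the clock gene values was not tested. In bulk samples like these, fewer cells of a type and less RNA per cell cannot be told apart. CPM also depends on scaling: with TMM factors the median gene was 0.39 higher in adult McSC than in melanoblasts on the log2 scale, a shift that became 1.16 with factors taken from abundant genes and 0.035 with a stricter filter.

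Between newborn melanoblasts and resting adult McSC, clock genes changed in both directions. The activator Arntl rose 2.33-fold and Per1 1.77-fold, whereas Per2 fell 2.32-fold, Per3 1.98-fold and Cry1 1.86-fold. Cry2, Clock, Nr1d1, Nr1d2 and Dbp were not called. That is 2 of 10 genes higher and 3 of 10 lower by edgeR's quasi-likelihood test at an adjusted p under 0.05, where 15.1% of all tested genes were higher, 18.3% lower and 33.4% either. Read against that background, 5 of 10 is a count over few genes, and nothing particular to the clock is drawn from it. Their median log2 fold change was -0.066, against 0.39 over all genes tested.

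**Figure D1:**
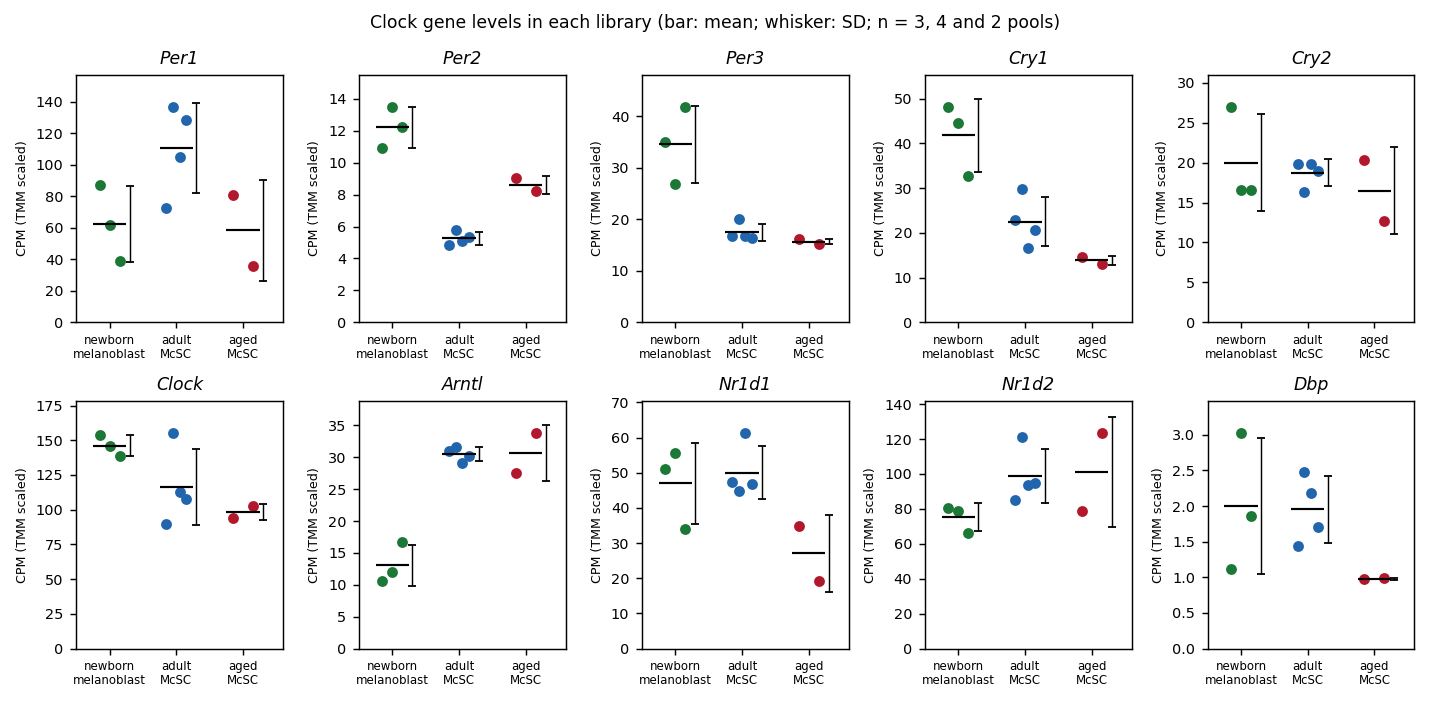
TMM-scaled CPM of the 10 clock genes (y axes, each from 0) in every library, grouped as newborn melanoblast (n = 3), adult McSC (n = 4) and aged McSC (n = 2), with the mean as a bar and the SD as a whisker. Arntl lies between 10.6 and 16.7 CPM in melanoblasts and between 27.5 and 33.8 CPM in McSC, and Per2, Per3 and Cry1 lie lower in adult McSC than in every melanoblast library.

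Per1 encodes the period protein most tied to acute signals (ENSMUSG00000020893, chr11:69095217-69109960 in mm10, plus strand). Its CPM was 86.9, 61.9 and 38.7 in melanoblast libraries 1 to 3, 72.7, 137, 105 and 128 in adult libraries 1 to 4, and 81.1 and 35.7 in the aged pair. The ranges of melanoblasts and adult McSC overlapped, through adult 1 and melanoblast 1. The log2 fold change, adult minus melanoblast, was 0.82 with a standard error (SE) of 0.295 and an adjusted p of 0.0351 (edgeR). This call was the least secure of the 5. It held in 10 of 18 alternative settings, all of them in the same direction, and was lost with DESeq2 (adjusted p = 0.0524), with limma voom (0.0766), and without melanoblast 2 (0.0805), melanoblast 3 (0.107), adult 2 (0.0832), adult 3 (0.0565) or adult 4 (0.087) under edgeR. Without both melanoblast 3 and adult 2 the change was 0.45 with an adjusted p of 0.214.

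Per2 (ENSMUSG00000055866, chr1:91415982-91459324, minus strand) encodes a central repressor of the loop. It measured 10.9, 13.5 and 12.3 CPM in melanoblasts, 4.83, 5.77, 5.08 and 5.37 CPM in adult McSC, and 9.02 and 8.22 CPM in aged McSC. The 3 groups did not overlap, with adult McSC lowest and aged McSC between the other two on this scale. Against melanoblasts the aged difference was -0.50 (adjusted p = 0.207, edgeR), and its sign turned with a stricter filter or factors from abundant genes. Adult minus melanoblast was -1.21 (SE 0.266, adjusted p = 0.00103, edgeR).

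Per3, a period protein with a lesser part in rhythm generation, had 35.0, 26.8 and 41.9 CPM in melanoblasts (ENSMUSG00000028957, chr4:151003652-151044665, minus strand). Adult McSC had 16.8, 20.0, 16.8 and 16.4 CPM, and aged McSC 16.1 and 15.3 CPM. All 6 McSC libraries lay below all 3 melanoblast libraries. The adult difference was -0.98 (SE 0.225, adjusted p = 0.00153, edgeR).

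Cry1, the stronger repressor of the cryptochrome pair, was 48.2, 44.5 and 32.7 CPM in melanoblasts (ENSMUSG00000020038, chr10:85131700-85185064, minus strand). It was 23.0, 29.7, 16.5 and 20.7 CPM in adult and 14.6 and 13.1 CPM in aged McSC. The groups stepped down in that order without overlap, and adult minus melanoblast was -0.89 (SE 0.236, adjusted p = 0.00505, edgeR). Its paralog Cry2 (ENSMUSG00000068742, chr2:92403646-92434043, minus strand) kept overlapping ranges, with 27.0, 16.5 and 16.6 CPM in melanoblasts, 19.8, 16.3, 19.9 and 19.0 CPM in adult and 20.3 and 12.7 CPM in aged McSC. The Cry2 difference, adult minus melanoblast, was -0.094, with a 95% interval from -0.61 to 0.42 (adjusted p = 0.789, edgeR), and its sign turned with a stricter filter or factors from abundant genes. Counts of Cry1 relative to Cry2 in the same library went from 1.78 to 2.69 in melanoblasts to 0.83 to 1.82 in adult and 0.716 to 1.03 in aged McSC.

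Arntl, the obligate partner of CLOCK, gave the most stable difference (ENSMUSG00000055116, chr7:113207465-113314126, plus strand). Melanoblast libraries held 10.6, 11.99 and 16.7 CPM, adult libraries 31.0, 31.7, 29.1 and 30.2 CPM, and aged libraries 27.5 and 33.8 CPM. Every McSC library was above every melanoblast library, and the 4 adult values spanned only 1.09-fold. The log2 fold change of 1.218 (SE 0.234, adjusted p = 0.000283, edgeR) kept its direction and its call in all 18 alternatives. Clock, which encodes the DNA-binding partner of ARNTL (ENSMUSG00000029238, chr5:76209868-76304792, minus strand), showed no call, with 154, 146 and 138 CPM in melanoblasts, 89.7, 155, 112 and 108 CPM in adult and 94.0 and 102 CPM in aged McSC. Adult 2 lay above every melanoblast library, and the other 3 adult libraries lay below all of them. The difference, adult minus melanoblast, was -0.33 (95% interval -0.78 to 0.12, adjusted p = 0.243, edgeR). Without melanoblast 3 and adult 2 it was -0.54 with an adjusted p of 0.0233, which made 4 clock genes lower and 1 higher, whereas with factors from abundant genes it was 0.44.

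The REV-ERB genes encode heme-binding receptors that repress Arntl. Nr1d1 (ENSMUSG00000020889, chr11:98767932-98775333, minus strand) had 51.0, 55.7 and 34.03 CPM in melanoblasts, 47.3, 44.7, 61.2 and 46.8 CPM in adult and 34.9 and 19.2 CPM in aged McSC. The adult and melanoblast ranges overlapped, and the difference was 0.092 (95% interval -0.41 to 0.59, adjusted p = 0.787, edgeR). It shares 263 exonic bases, 8.5% of its exon length, with Thra on the opposite strand, and whether counting used strand is not given in the sources used here. Nr1d2 (ENSMUSG00000021775, chr14:18204054-18239127, minus strand) had 80.8, 79.1 and 66.2 CPM in melanoblasts, 85.1, 121, 93.8 and 94.9 CPM in adult and 79.0 and 123 CPM in aged McSC. Adult libraries were all above the melanoblast ones. With TMM factors the Nr1d2 difference of 0.39 equalled the shift of the median gene and was not called (adjusted p = 0.175, edgeR). With factors from abundant genes it was 1.18, near a median of 1.16, and was called (adjusted p = 3.5e-05, edgeR). With the stricter filter it was 0.92, which lay 0.88 above the median gene, and was called (adjusted p = 0.000325, edgeR). Arntl and Nr1d2 higher and Per2, Per3 and Cry1 lower make 2 and 3 clock genes whose adult and melanoblast libraries did not overlap, where 19.5% and 19.8% of all tested genes did so.

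Dbp, an output gene whose protein activates D-box promoters, was close to the limit of these data (ENSMUSG00000059824, chr7:45705088-45710203, plus strand). The libraries held 18, 58 and 37 counts in melanoblasts, 37, 58, 53 and 41 in adult and 24 and 17 in aged McSC. As CPM, that is 1.12, 3.02 and 1.86, then 1.44, 2.48, 2.19 and 1.71, then 0.97 and 0.98. Its group means of 2.00, 1.95 and 0.98 CPM can be set beside the olfactory and vomeronasal receptor genes, which skin is not known to use and whose group means had a 95th percentile of 0.787, 1.77 and 2.06 CPM in the same order. The difference, adult minus melanoblast, was -0.038 with an interval from -1.08 to 1.002 (adjusted p = 0.96, edgeR). Dbp also shares 539 exonic bases, 18.0% of its exon length, with Sphk2 on the opposite strand.

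**Figure D2:**
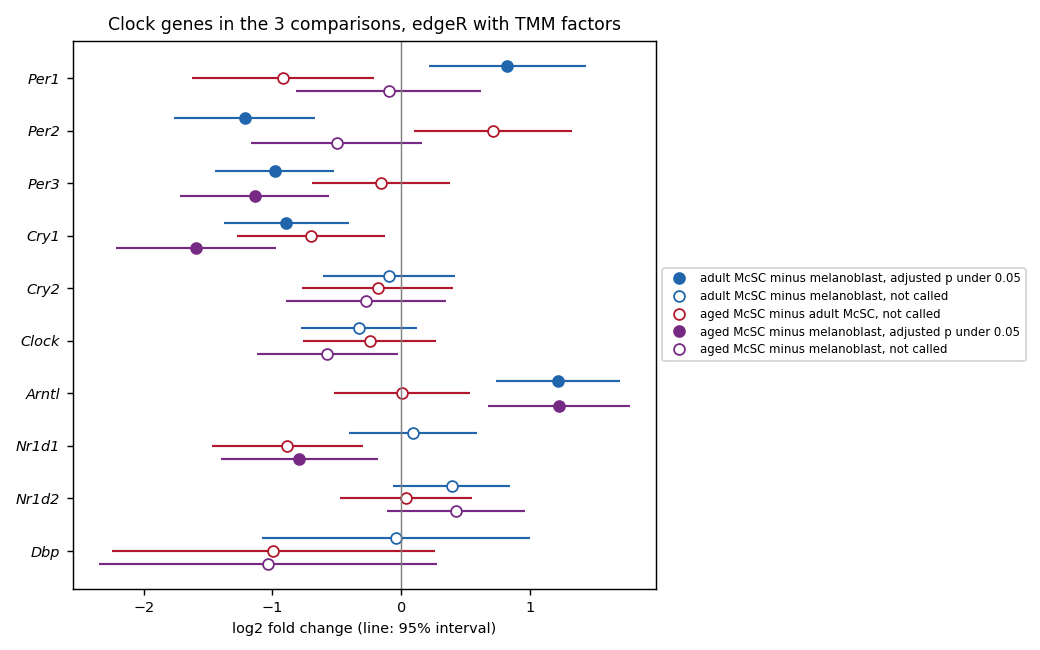
Log2 fold changes (x axis) of the 10 clock genes (y axis) in the 3 comparisons, with 95% intervals from edgeR. Filled points passed an adjusted p under 0.05, and open points did not: Per1 and Arntl lie to the right and Per2, Per3 and Cry1 to the left of 0 in adult minus melanoblast, and no point is filled in aged minus adult. Signs of the open points near 0 turn under other scalings.

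Scaling set which of these genes counted as higher or lower. With factors from abundant genes, 6 of 10 clock genes rose and 0 fell in adult McSC (Per1, Cry2, Clock, Arntl, Nr1d1 and Nr1d2), while over all genes 10604 were then higher and 1905 lower, against 4836 and 5840 with TMM over all genes kept. With a stricter filter of 5 CPM, 4 rose and 1 fell among the 9 genes left. Relative to the median gene, which either set of factors shifts along with all others, Arntl stood 0.83 higher and Per1 0.43 higher with TMM, while Per2, Per3 and Cry1 differed from it by -1.61, -1.38 and -1.29. With the stricter filter, which leaves out the genes of low counts, the same differences from the median were 1.69 for Arntl, 1.33 for Per1, -0.72 for Per2, -0.51 for Per3 and -0.39 for Cry1. The direction of Arntl, Per1, Per2, Per3 and Cry1 stayed the same in all 18 alternatives, and the calls of Per2, Per3 and Cry1 held in 17, 16 and 16 of them.

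**Figure D3:**
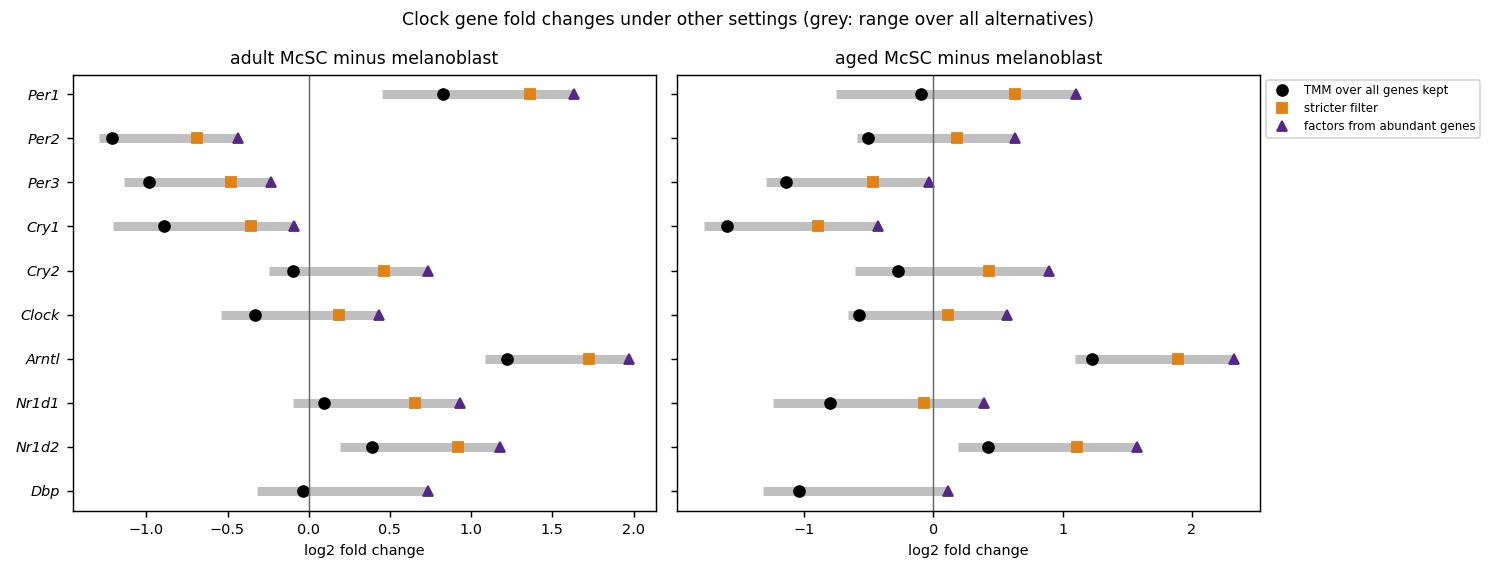
Log2 fold change (x axis) of each clock gene (y axis) against melanoblasts with TMM factors over all genes kept (circles), with a stricter filter (squares) and with factors from abundant genes (triangles), with the range over all alternatives in grey. Arntl lies right of 0 throughout in both panels and Cry1 left of 0. Cry2, Clock, Nr1d1 and Dbp cross 0 in both panels, and Per1 and Per2 cross it in aged minus melanoblast.

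Ratios of counts within a library do not depend on any scaling factor. Counts of Arntl divided by those of Per2 were 0.888 to 1.36 in melanoblasts, 5.48 to 6.42 in adult and 3.05 to 4.11 in aged McSC. Against Per3 they were 0.302 to 0.447, 1.58 to 1.85 and 1.71 to 2.21, and against Cry1 0.22 to 0.512, 1.06 to 1.76 and 1.89 to 2.58. In each of these ratios every McSC library exceeded every melanoblast library. Relative to its partner Clock, Arntl went from 0.0687 to 0.121 in melanoblasts to 0.204 to 0.346 in adult and 0.293 to 0.33 in aged McSC. Per1 relative to Per2 singled out the adult group, with 15 to 23.9 against 3.16 to 7.98 in melanoblasts and 4.35 to 8.99 in aged McSC. These ratios describe the libraries and were not tested.

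**Figure D4:**
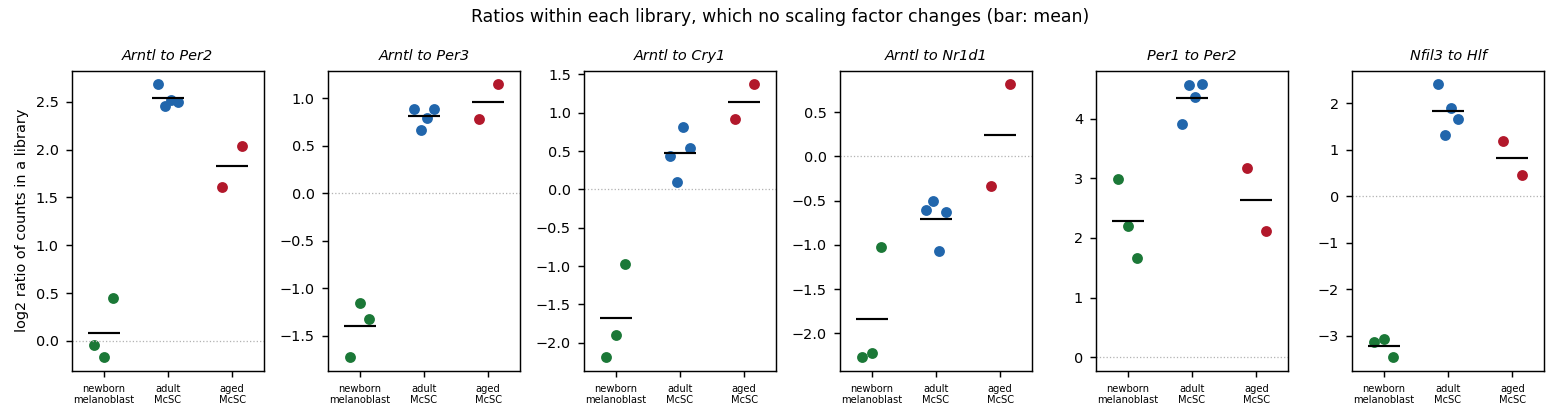
Log2 ratio of counts of 2 genes in the same library (y axes), by group, with the mean as a bar. Arntl relative to Per2, Per3 and Cry1 is higher in all 6 McSC libraries than in all 3 melanoblast libraries, Per1 relative to Per2 is highest in adult McSC, and Nfil3 relative to Hlf is below 0 in melanoblasts and above 0 in McSC.

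Levels between genes were compared per kilobase of exon. In melanoblasts Nr1d1 was highest at 15.3 ± 3.71 CPM per kb (SD, n = 3), followed by Nr1d2 at 13.9, Cry1 at 12.5, Per1 at 11.1 and Clock at 10.7, neighbours whose ranges overlapped. The other 5 stood apart below them, from Per3 at 3.60 and Cry2 at 3.17 to Per2 at 2.09, Arntl at 1.74 and Dbp at 0.668. Adult McSC were led by Per1 at 19.7 ± 5.09 CPM per kb (SD, n = 4), with Nr1d2 at 18.3 and Nr1d1 at 16.3 overlapping it. Arntl, at 4.05, was there above Cry2 at 2.97, Per3 at 1.82 and Per2 at 0.899, all apart from one another, whereas Per2 overlapped Dbp at 0.653. In aged McSC Nr1d2 was first at 18.7 and apart from Per1 at 10.4, and Arntl at 4.08 overlapped Cry1 at 4.14.

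Between adult and aged McSC none of the 10 clock genes was called, by edgeR with adjusted p, where 0.303% of all tested genes were. At an unadjusted p under 0.05 there were 4 of 10 (Per1, Per2, Cry1 and Nr1d1), where 10.2% of all tested genes reached it, and DESeq2 called 0 and limma voom 1. Nr1d1 was lower in both aged libraries, 34.9 and 19.2 CPM, than in every adult library, with a log2 difference of -0.89 and a 95% interval from -1.47 to -0.30 (adjusted p = 0.283 by edgeR and 0.0143 by limma voom). Per1 had a difference of -0.92 with an interval from -1.63 to -0.21 (adjusted p = 0.377), but its aged libraries differed from each other 2.27-fold and the first lay within the adult range. For Cry1 the difference was -0.70 (adjusted p = 0.412), with both aged libraries below the adult ones.

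Per2 went the other way, with both aged libraries above all adult ones and a difference of 0.71 (95% interval 0.097 to 1.33, adjusted p = 0.438, edgeR). Arntl differed by 0.007, with an interval from -0.52 to 0.53, and Nr1d2 by 0.035, from -0.48 to 0.55. For Per3 (-0.16), Cry2 (-0.18) and Clock (-0.25) the intervals included 0, as did that of Dbp (-0.995, from -2.25 to 0.26). In all, 1 clock gene was higher and 4 (Per3, Cry1, Nr1d1 and Dbp) lower in aged than adult libraries without overlap, where 15.5% and 12.1% of tested genes were. Summed keratinocyte and Schwann cell markers were also lower in the aged than in the adult libraries, although Krt10 (0.77) and S100b (0.79) differed the other way without being called. Fibroblast markers summed to 416 to 1619 CPM in melanoblasts, 332 to 665.6 in adult and 88.2 to 177.2 in aged McSC, and endothelial ones to 30.7 to 67.9, 44.3 to 169.7 and 30.7 to 32.2 CPM. By edgeR 0 of 9 keratinocyte, 3 of 6 Schwann cell, 2 of 5 fibroblast and 0 of 4 endothelial markers fell from adult to aged. The part of these cells in the clock gene differences was not tested. With 2 aged pools, no clock gene difference passed the edgeR adjustment over all genes, although 4 of 10 had an unadjusted p under 0.05.

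Set against melanoblasts, aged McSC had 1 clock gene higher and 3 lower, where 20.4% of tested genes were higher, 20.3% lower and 40.7% either. This comparison shares its groups with both others and is not separate evidence. Arntl differed by 1.23 (SE 0.268, adjusted p = 0.000982), Cry1 by -1.59 (SE 0.301, adjusted p = 0.000241) and Per3 by -1.14 (SE 0.281, adjusted p = 0.00282), all by edgeR. Nr1d1 differed by -0.79 (adjusted p = 0.036), although the first aged library, at 34.9 CPM, lay above melanoblast 3, at 34.03 CPM. Its call held in 9 of 18 alternatives. It was lost, among others, without aged 2 (-0.31, adjusted p = 0.527), melanoblast 1 (0.091), melanoblast 2 (0.117), adult 1 (0.0729) or adult 4 (0.0511), and its sign turned with factors from abundant genes (0.39). Without aged 2, Per3 also missed the threshold (-0.97, adjusted p = 0.0548). With abundant-gene factors 5 clock genes were called higher and 0 lower in this comparison, but so were 15498 and 1721 of the 31961 genes tested.

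Among 24 further genes of the clock, 5 rose and 6 fell in adult McSC against melanoblasts, with a median of -0.23, where 15.1% of all tested genes rose and 18.3% fell. The counts of the list lie near these shares. The D-box factors, named for the motif that was also matched before Per3, gave the steepest contrast. Whether they act on Per3 in these cells was not tested. Hlf, an activator related to Dbp, was 97.7, 88.6 and 73.3 CPM in melanoblasts, 9.12, 14.2, 10.7 and 9.87 CPM in adult and 11.2 and 9.61 CPM in aged McSC. All McSC libraries were far below all melanoblast ones, and the adult difference was -2.98 (SE 0.228, adjusted p = 4.49e-10, edgeR). Nfil3, a repressor that binds the D-box motif, was 11.1, 10.5 and 6.67 CPM in melanoblasts, 48.4, 35.4, 40.1 and 31.2 CPM in adult and 25.6 and 13.1 CPM in aged McSC. It rose by 2.04 in adult McSC (SE 0.279, adjusted p = 4.68e-06, edgeR) without overlap of the groups. Tef, another activator, fell (-0.95, adjusted p = 0.00176), a call lost with the stricter filter (adjusted p = 0.0562, edgeR) and with factors from abundant genes (0.416). Counts of Nfil3 relative to Hlf were 0.0911 to 0.119 in melanoblasts, 2.5 to 5.31 in adult and 1.37 to 2.28 in aged McSC.

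Rorb, a receptor of the kind that activates Arntl where the REV-ERBs repress it, was 13.7, 12.3 and 11.3 CPM in melanoblasts, 28.8, 38.1, 29.8 and 35.2 CPM in adult and 61.3 and 67.8 CPM in aged McSC. The groups stepped up without overlap, by 1.41 from melanoblast to adult (SE 0.223, adjusted p = 3.14e-05, edgeR). The step from adult to aged was 0.97 (SE 0.233, adjusted p = 0.0845, edgeR), which passed the threshold in 7 of 18 alternatives, among them DESeq2 (adjusted p = 0.043) and edgeR without melanoblast 3 (0.0221). Counts of Rorb relative to Nr1d1 were 0.221 to 0.332, 0.487 to 0.853 and 1.76 to 3.53 in melanoblasts, adult and aged McSC.

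The paralogs of the activator pair were low but higher in adult McSC. The olfactory and vomeronasal receptor genes also had a higher 95th percentile there, 1.77 CPM against 0.787 CPM in melanoblasts. The part of that shift in the paralog values was not tested. Arntl2 rose by 1.34 (adjusted p = 0.00884, edgeR) from 1.93, 2.19 and 4.52 CPM in melanoblasts to 5.10, 5.56, 7.43 and 11.1 CPM. Its call was lost without melanoblast 1 (adjusted p = 0.0535, edgeR) or adult 4 (0.0544). Npas2, which stays under the level set for naming genes and is added after its values were seen, rose by 2.10 (adjusted p = 0.00263, edgeR) from a mean of 0.875 to 3.77 CPM. Of the E-box repressors, Bhlhe40 rose (0.60, adjusted p = 0.0414) and Bhlhe41 fell (-0.98, adjusted p = 0.00223), the latter call being lost with factors from abundant genes. The Bhlhe40 call held in 9 of 18 alternatives. By edgeR it was lost without melanoblast 1 (adjusted p = 0.0785), 2 (0.0652) or 3 (0.0934), without adult 2 (0.0808), 3 (0.0854) or 4 (0.0611), without both melanoblast 3 and adult 2 (0.114), with RLE factors (0.0736) and, at 0.05, with the replicate block. Among 9 genes that phosphorylate or degrade period and cryptochrome proteins, the kinases Csnk1e (-1.36, adjusted p = 4.88e-05) and Gsk3b (-1.26, adjusted p = 0.000209) and the ubiquitin ligase subunit Fbxw11 (-0.88, adjusted p = 0.00453) fell, and 0 rose (edgeR). The calls of Csnk1e and Gsk3b held in all 18 alternatives. That of Fbxw11 was lost with factors from abundant genes (-0.078) and with the stricter filter (-0.34).

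In aged McSC against melanoblasts, 4 of these 24 genes rose and 9 fell, where 20.4% and 20.3% of all tested genes did, with Csnk1d (-1.21, adjusted p = 0.00133) and Btrc (-0.99, adjusted p = 0.0089, edgeR) now among the latter. Without aged 2 both calls were lost (adjusted p = 0.0511 for Csnk1d and 0.069 for Btrc, edgeR), and without aged 1 that of Btrc (0.102). The balance of rises and falls in aged McSC against melanoblasts turned with scaling. Abundant-gene factors gave 15 rises and 3 falls, and under the stricter filter there were 9 and 6. In the other fits that kept both aged pools, falls outnumbered rises. The median log2 fold change of the 24 genes was -0.41 in the fit reported, -0.21 without aged 1 and -0.39 without aged 2. Against adult McSC 0 of 24 were called. The adult counts of 5 and 6 became 6 and 12 without melanoblast 3 and adult 2, 7 and 11 with limma voom, 12 and 3 with factors from abundant genes, and 8 and 4 of 22 with the stricter filter.

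**Figure D5:**
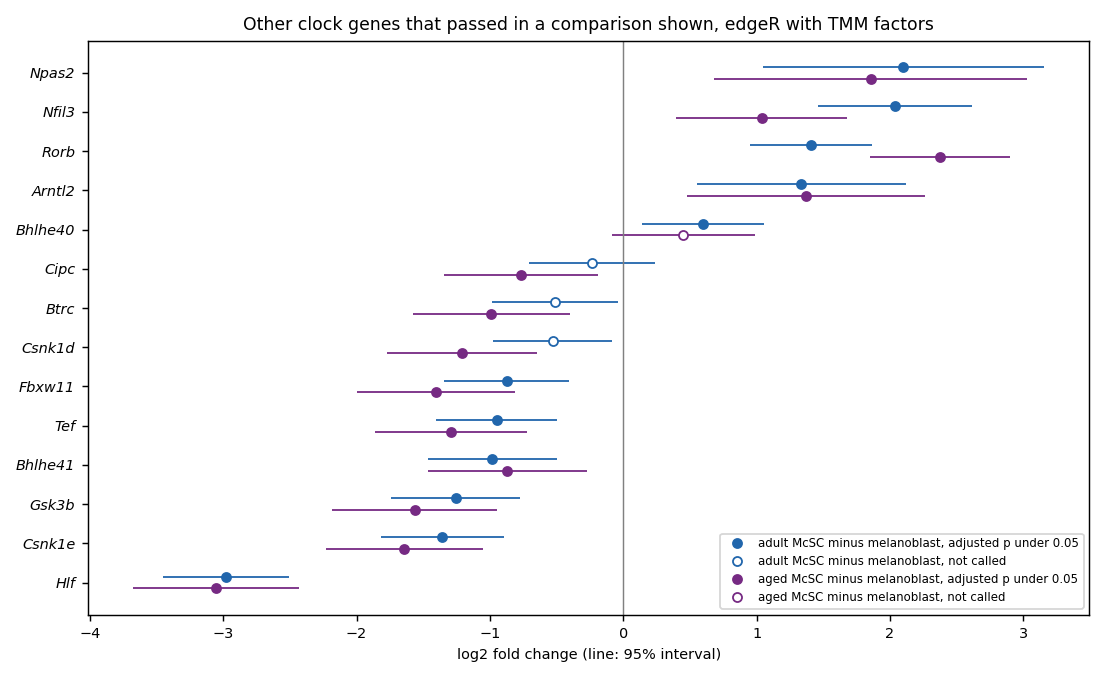
Log2 fold changes (x axis) with 95% intervals for those of the 24 further clock genes that passed in at least 1 of the comparisons shown (y axis), adult minus melanoblast and aged minus melanoblast, from edgeR with TMM factors. Nfil3 and Rorb lie right of 0 and Hlf well left of it in both. With factors from abundant genes, which are not drawn here, Csnk1d and Btrc change sign in adult minus melanoblast.

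Since Per1 is known to answer acute signals, 16 genes of such inputs were set beside it. In adult McSC against melanoblasts 11 rose and 0 fell, where 15.1% of all tested genes rose and 18.3% fell, and no alternative gave fewer than 11. Immediate early genes accounted for 7 of 10: Egr1 (3.16), Junb (2.90), Fosb (2.83), Fos (2.496), Dusp1 (1.75), Ier2 (1.45) and Nr4a1 (1.26), as log2 fold changes with adjusted p from 1.43e-08 to 0.000303 (edgeR). Summed over the 10 genes they were 1042, 1077 and 640.8 CPM in melanoblasts, 5260, 4481, 5040 and 3698 CPM in adult and 4840 and 4788 CPM in aged McSC. Crem, Sik1 and Gem, the rest of these 10, were not called in adult McSC with TMM factors. Their means were 35.06, 54.58 and 45.29 CPM in melanoblasts and 30.55, 65.81 and 61.08 CPM in adult McSC, with overlapping ranges. Glucocorticoid receptor targets gave 4 of 6, namely Sgk1 (2.08), Klf9 (1.70), Zbtb16 (1.34) and Errfi1 (0.89). Fkbp5 was not called, and Tsc22d3 was not called in adult and fell in aged McSC (-0.92, adjusted p = 0.00995, edgeR). The sums in aged libraries lay within or near the adult range. Per1 was 81.1 and 35.7 CPM there, the first value within its adult range and the second below it. Within the adult group the library with the lowest Per1, adult 1, had the highest sum of immediate early genes. In melanoblasts library 3 was lowest in both, and aged 1 lay above aged 2 in both. Whether such signals set the level of Per1 was not tested. What dissociation and sorting contributed to these levels was not tested.

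The genes whose profiles over the 9 libraries were most like those of Per1, Nr1d1, Arntl and Dbp were sought among protein-coding genes with a mean of at least 10 CPM, by the root mean square (RMS) difference of centred log2 CPM. Closest to Arntl, over 8038 genes, were Ripk1 (0.146), Taf9b (0.147) and Cacna1c (0.162). Nr1d1 was most like Anxa2 (0.108), Arpc1b (0.149) and Fzd1 (0.153), and Per1 most like Tapbp (0.214), Tbc1d10a (0.251) and Klf5 (0.277). For Dbp they were Anks1 (0.146), Srfbp1 (0.222) and Cxxc5 (0.265), over 8039 genes. None of these 12 is among the clock genes counted here, and the 9 libraries behind each value fall into only 3 groups.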

How the data were processed

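The deposited files hold raw counts per Ensembl gene made by the authors, 1 table for each of 9 libraries, with no normalization. The tools named by the authors, per the submitters' processing notes, are STAR 2.5.2, DESeq2 1.22.2, SAMtools 1.9, Trimmomatic 0.36 and FastQC 0.11.8, on build mm10. How reads were counted, and whether by strand, is not given in the sources used here. Per the labels' protocols, 20 ng of RNA was amplified to cDNA, a step that can shift transcript proportions, and no molecular identifiers are named.

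Symbols and gene positions came from the GENCODE vM21 annotation, which matched 49326 of 49671 identifiers. The 345 others held 0.047% of counts. All pairs of libraries in a group had a chi-square of 17.5 to 75.1 per degree of freedom, more than counting noise gives, so each counted as 1 replicate. P-values measure the spread between these pools. An observed 0 allows up to 3 counts, which is 0.117 to 0.187 CPM by library and covers counting error only.

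All libraries were fitted together with edgeR 4.0.16 in R 4.3.3 (TMM factors, filterByExpr, 31961 genes tested, group means, robust quasi-likelihood test, Benjamini-Hochberg adjustment over all genes at 0.05). Intervals are 95%, and log2 CPM used a prior count of 2. Other settings tried were RLE factors, limma 3.58.1 (voom, sample weights), DESeq2 1.42.0, factors from genes above a mean log2 CPM of 5, no filter, a filter of 5 CPM, a fit of the 2 groups alone, a replicate block and leaving out each library. The fit was tested on simulated counts with these library sizes. In each comparison 100 genes were changed 2-fold and 100 genes 4-fold, none of them low in counts. All other genes had equal means in the 3 groups. True 2-fold changes were called in 25% of cases for adult minus melanoblast, 12% for aged minus adult and 13% for aged minus melanoblast. For 4-fold changes the shares were 89%, 73% and 72%. False calls made up 5.79%, 7.61% and 4.49% of all calls. Most 2-fold changes were missed in that setting. In the comparisons with melanoblasts far more genes were called, so these shares are not the sensitivity of those fits. A gene not called may still differ.

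The clock genes and the gene lists were chosen with earlier results of these data known. All 10 clock genes are named. Of the other lists the text names genes that passed in a comparison with at least 5 CPM in the higher group, up to 12 per list by smallest p. Crem, Sik1, Gem and Fkbp5 did not pass and are named to complete their lists. Individual values of 1 further gene are not reported here. Genes most like Per1, Nr1d1, Dbp and Arntl are the 3 closest for each.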

Additional observations from a re-analysis of the deposited data

Results flagged for a closer look

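In 2 of 34 groups of 4 values checked, 1 library lay farther from the other 3 than Dixon's 95% critical value of 0.829 allows, and chance alone gives about 1 in 20. Per3 was 19.97 CPM in adult library 2, where the other adult libraries had 16.4 to 16.8 CPM. It remained below every melanoblast library. Nr1d1 was 61.24 CPM in adult library 3, where the others had 44.7 to 47.3 CPM. Without adult library 3 the Nr1d1 difference, adult minus melanoblast, was -0.018 in place of 0.092, and it was not called in either fit.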

How the results depend on the processing

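Of the values for single clock genes under the alternatives, 52 turned sign, and in none of these was the cause tested. The fit without both melanoblast 3 and adult 2 was chosen after seeing the data. Dbp gave no value under the stricter filter.

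In adult minus melanoblast, log2 fold changes turned sign for Cry2 with abundant-gene factors (0.73), no filter (0.047) and the stricter filter (0.46), for Clock with abundant-gene factors (0.44) and the stricter filter (0.18), and for Nr1d1 without melanoblast 3 and adult 2 (-0.046). Dbp turned with limma voom (0.30), abundant-gene factors (0.73), no filter (0.084), 2 groups only (0.041) and the replicate block (0.071). With 1 library left out, the range was -0.22 to 0.18 for Cry2, -0.095 to 0.23 for Nr1d1 and -0.32 to 0.38 for Dbp.

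In aged minus adult, Per3 (0.20 and 0.056) and Cry2 (0.16 and 0.023) turned with abundant-gene factors and the stricter filter, and Clock with abundant-gene factors (0.13). Arntl turned with DESeq2 (-0.076), RLE (-0.076) and no filter (-0.034), and Nr1d2 with DESeq2 (-0.053), RLE (-0.053), no filter (-0.014) and the replicate block (-0.064). With 1 library left out, the range was -0.60 to 0.15 for Cry2, -0.11 to 0.12 for Arntl and -0.28 to 0.29 for Nr1d2.

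In aged minus melanoblast, abundant-gene factors turned Per1 (1.11), Per2 (0.64), Cry2 (0.89), Clock (0.57), Nr1d1 (0.39) and Dbp (0.11). The stricter filter turned Per1 (0.63), Per2 (0.19), Cry2 (0.43) and Clock (0.12). Per1 turned also with no filter (0.027) and 2 groups only (0.043). With 1 library left out, the range was -0.75 to 0.50 for Per1 and -0.60 to 0.15 for Cry2.

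In adult minus melanoblast, clock genes called higher numbered 1 with DESeq2, 1 with limma voom, 6 with abundant-gene factors, 4 with the stricter filter, 1 without melanoblast 3 and adult 2, and 1 to 2 with 1 library left out. Those called lower numbered 0 with abundant-gene factors and 1 with the stricter filter, which called 6494 genes in all. In aged minus melanoblast, 5 were higher and 0 lower with abundant-gene factors, 2 and 1 with the stricter filter (7611 genes in all), and 1 to 3 were lower with 1 library left out (7410 to 16292 genes in all). In aged minus adult, genes called over the whole table were 97 in the fit reported, 314 with DESeq2, 1520 with limma voom (1 clock gene, Nr1d1, lower), 57 with abundant-gene factors, 343 with no filter, 311 with 2 groups only, 278 without melanoblast 3 and adult 2, and 13 (without aged 2) to 303 (without melanoblast 3) with 1 library left out.

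Same-numbered libraries did not deviate together in every pair (correlations of -0.08, 0.20 and -0.044 for melanoblast and adult 1 to 3), and not every library correlated best with its own number. Since deviations were taken within such small groups, these correlations cannot tell whether same-numbered libraries were prepared together. With the replicate block 172 genes were called in aged minus adult, and clock genes numbered 2 higher and 3 lower in adult minus melanoblast.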
